A study of Mus musculus with 6 samples.

Results

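The genes described here are 42 antiviral effectors and partners that interferon switches on, named as a list, of which 41 had a probe set among the 21335 genes named on the arrays. Each was represented by the brightest probe set naming it alone, and 2 by a probe set that names a further gene (Oas1g, shared with Oas1a, and Isg15, shared with Gm9706). Expression of Ifi44 was not analysed here, and the gene enters only the promoter counts below. All 41 passed the intensity filter described below, with mean log2 intensities of 10.16 to 13.89 over the 6 arrays, where the filter lay at 7.49.

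RNA came from thioglycolate-elicited peritoneal macrophages of C57BL/6 mice aged 8 weeks. The 3 arrays labelled KLF2∆/∆ stand for LysMCre/Cre mice that also carry the floxed allele KLF2 FL/FL, and the 3 LysMCre/Cre arrays stand for mice with the Cre alone. The Cre is expressed from the lysozyme locus Lyz2 and so acts in myeloid cells, and it is present in both groups. Both groups had received LPS (lipopolysaccharide, a bacterial cell wall component) at 100 ng/ml for 6 h, so that a difference between them is a difference after LPS and not a response to it. Macrophages were enriched by adherence, with no sorting mentioned in the labels. Which mouse or pool an array came from is not given either, so each p-value rests on array-to-array spread alone, which may be technical.

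Cells that sense LPS through TLR4 and its adaptor TRIF make type I interferon, which acts back on them through the receptor IFNAR. The receptor's kinases activate the transcription factor complex ISGF3, which holds STAT2 and IRF9 and binds the interferon-stimulated response element (ISRE) in the promoters of many genes. Their products degrade foreign RNA, stop its translation, tag proteins with ISG15, hold virions at membranes and load peptides for display to T cells. Macrophages are known for a strong and fast response of this kind after LPS.

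Klf2 itself, which encodes a zinc finger transcription factor, had log2 intensities of 9.10, 9.25 and 9.21 in the arrays labelled KLF2∆/∆, against 8.88, 8.97 and 8.94 in LysMCre/Cre arrays. The signal was higher where the label says deleted (0.26 ± 0.064 SE on the log2 scale, limma adjusted p = 0.00416, and 0.1 in an exact two-sided permutation test, the smallest p that 3 arrays against 3 allow). This goes against the label, and no source used here places the probes inside or outside the floxed stretch. Each direction below is therefore one between arrays labelled KLF2∆/∆ and arrays labelled LysMCre/Cre. Lyz2, the locus of the Cre, changed by 0.0050 (adjusted p = 0.964). Pearson's r across all tested probe sets was 0.995 to 0.997 for arrays of 1 group and 0.982 to 0.986 across the groups.

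The antiviral genes were slightly higher in the arrays labelled KLF2∆/∆. Of 41 measured genes 25 rose, none fell and 16 did not pass, by limma with Benjamini-Hochberg adjustment over all tested probe sets and a threshold of 0.05. At an unadjusted p under 0.05 the counts were 30 higher and 0 lower. The rises were small: the changes of the 41 genes, given throughout on the log2 scale as the KLF2∆/∆ mean minus the LysMCre/Cre mean, ran from -0.081 to 0.27 with a median of 0.135, a ratio of 1.10. Over all 13027 tested probe sets 13.6% were called higher and 16.2% lower, and the median change was 0.0020. These genes are bright on the array, and bright probe sets leaned upwards as a whole. Among the 3048 tested probe sets at least as bright as the dimmest of the genes, 32.7% were called higher and 17.6% lower, with a median change of 0.045. The share of the antiviral genes called higher, 61.0%, lay above both backgrounds. The second background starts at the dimmest gene, with a mean of 10.16, and was not matched to the brightness of the genes. Their mean was 12.24 to 12.44 per array, and the share called at that brightness was not computed. In size the genes stood well inside the range of other changes, since the median size of a called change over all probe sets was 0.265 and 18 of the bright probe sets changed by more than 1.

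Values of the groups did not overlap for 29 of the 41 genes, all with the higher values in the arrays labelled KLF2∆/∆, against 19.4% of all tested probe sets and 37.8% of those as bright. The change was positive for 39 genes, and the 2 exceptions, Rsad2 and Ifi205, did not pass. The macrophage markers of the same arrays had a median change of 0.15, with 5 of 9 tested higher and 2 lower. Among fibroblast and mesothelial markers the median was -0.845, with 10 of 11 lower, and the markers of resident large peritoneal macrophages -0.87 with 6 of 7 lower. Their part in the small rises of the antiviral genes was not tested. In RNA of a mixed culture, fewer cells of a type and less RNA per cell cannot be told apart.

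**Figure D1:**
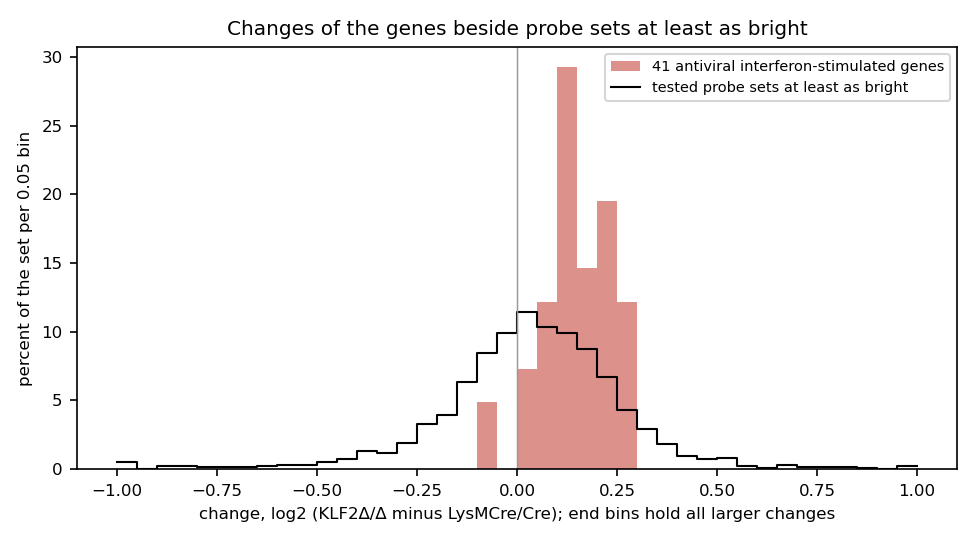
Share of probe sets (percent, vertical) by change in log2 intensity, KLF2∆/∆ minus LysMCre/Cre (horizontal, bins of 0.05). Bars show the 41 antiviral genes, which lie between -0.081 and 0.27, and the line the 3048 tested probe sets at least as bright, whose median is 0.045.

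Promoter sequence is shown for 7 of the genes, so that the element that ISGF3 binds can be seen in genes that rose and in genes that did not pass. The windows were the 250 bases before the RefSeq start, on the gene's own strand, in build GRCm38.p6. The search covered 250 bases before to 50 after each start, for GAAA and GAAA set apart by 2 bases of any kind, on both strands, with overlapping matches counted. Letters in capitals are matches, and a match is a description of the sequence only. Ifit3, Oas3 and Stat2 hold a match and rose, Isg15, Ifit1 and Rsad2 hold one and did not pass, and Dtx3l rose and holds none in its window. Ifit3 lies at chr19:34583279-34583528 on the plus strand, Oas3 at chr5:120777660-120777909 on the minus strand, and Stat2 at chr10:128270248-128270497 on the plus strand. Isg15 lies at chr4:156200819-156201068 on the minus strand, Ifit1 at chr19:34640639-34640888 on the plus strand, Rsad2 at chr12:26456453-26456702 on the minus strand and Dtx3l at chr16:35939028-35939277 on the minus strand.
Ifit3: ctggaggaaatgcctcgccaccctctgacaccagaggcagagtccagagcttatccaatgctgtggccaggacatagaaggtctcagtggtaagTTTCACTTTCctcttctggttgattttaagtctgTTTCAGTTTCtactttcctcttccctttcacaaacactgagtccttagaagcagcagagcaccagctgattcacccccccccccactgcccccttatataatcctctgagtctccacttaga
Oas3: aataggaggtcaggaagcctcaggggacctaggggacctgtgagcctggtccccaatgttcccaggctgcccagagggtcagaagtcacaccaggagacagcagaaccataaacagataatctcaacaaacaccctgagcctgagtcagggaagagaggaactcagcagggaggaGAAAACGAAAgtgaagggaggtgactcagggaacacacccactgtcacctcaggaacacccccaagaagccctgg
Stat2: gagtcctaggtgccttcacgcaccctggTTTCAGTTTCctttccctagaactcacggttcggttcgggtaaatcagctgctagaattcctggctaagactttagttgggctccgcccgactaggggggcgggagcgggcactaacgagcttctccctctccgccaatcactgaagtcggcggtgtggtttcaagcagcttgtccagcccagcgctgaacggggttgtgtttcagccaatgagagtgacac
Isg15: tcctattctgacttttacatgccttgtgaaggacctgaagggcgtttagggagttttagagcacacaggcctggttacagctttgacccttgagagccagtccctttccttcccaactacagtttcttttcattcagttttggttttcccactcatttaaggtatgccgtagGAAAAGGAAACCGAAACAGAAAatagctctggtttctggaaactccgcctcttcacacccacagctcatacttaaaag
Ifit1: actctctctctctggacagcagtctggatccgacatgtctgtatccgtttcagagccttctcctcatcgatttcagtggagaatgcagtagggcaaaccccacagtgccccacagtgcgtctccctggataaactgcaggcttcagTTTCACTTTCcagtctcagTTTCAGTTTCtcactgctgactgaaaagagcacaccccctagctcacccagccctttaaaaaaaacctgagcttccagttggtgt
Rsad2: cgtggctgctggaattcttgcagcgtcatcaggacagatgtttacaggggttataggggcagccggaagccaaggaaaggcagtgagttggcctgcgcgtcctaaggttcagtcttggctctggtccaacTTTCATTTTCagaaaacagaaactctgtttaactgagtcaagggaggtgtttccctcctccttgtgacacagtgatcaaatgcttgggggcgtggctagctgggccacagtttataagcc
Dtx3l: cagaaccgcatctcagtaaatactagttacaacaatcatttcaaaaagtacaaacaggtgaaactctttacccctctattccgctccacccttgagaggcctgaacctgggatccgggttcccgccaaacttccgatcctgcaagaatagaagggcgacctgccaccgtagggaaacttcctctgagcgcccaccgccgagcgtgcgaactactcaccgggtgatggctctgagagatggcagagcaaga

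RefSeq windows were found for 33 of the 42 genes. Of these, 13 (39.4%) held the ISRE letters in at least 1 window, against 3.99% of all 27025 genes with a window and 3.44% of all 32851 windows. Ifit1 and Ifit3 hold matches of the same form, TTTCACTTTC and TTTCAGTTTC, once each, and the 3 matches of Isg15 overlap in 1 stretch. Among measured genes with a match 6 of 13 rose, with a median change of 0.11, and among those without one 13 of 19 rose, with a median of 0.165. Of tested probe sets at least as bright as the dimmest antiviral gene, 32.7% were called higher. CACCC, the letters at the core of sites that KLF proteins bind, was present in 66.7% of the 33 genes, near the 59.8% of all genes. Among measured genes with CACCC 15 of 22 rose (median change 0.18), and among those without it 4 of 10 rose (median 0.11). The link of either set of letters to the changes was not tested.

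**Figure D2:**
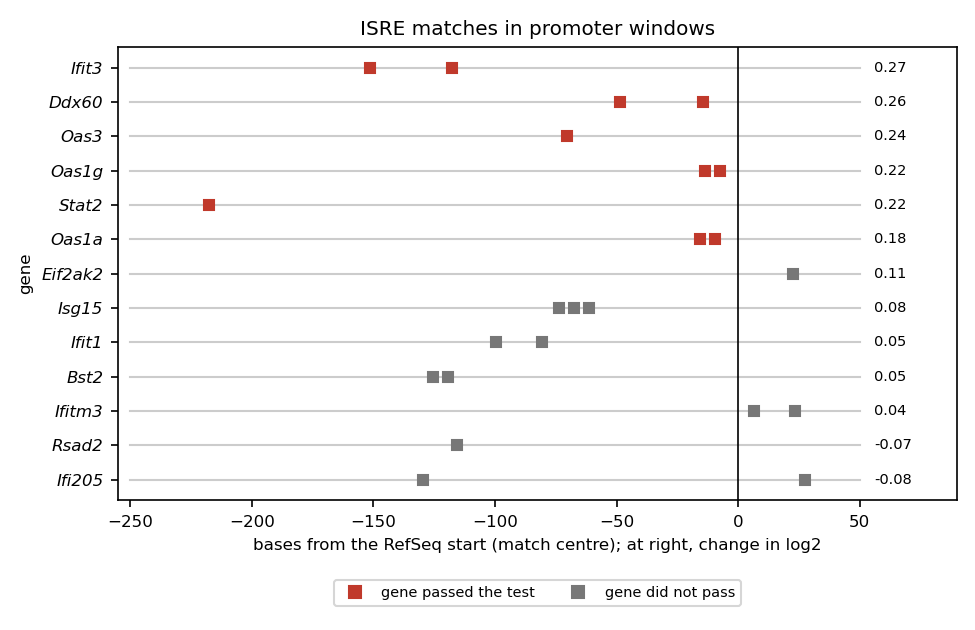
Position of each ISRE match (squares, bases from the RefSeq start) in the promoter windows of the 13 genes that hold one, ordered by change in log2 intensity, KLF2∆/∆ minus LysMCre/Cre, which is printed at the right. Of the 23 matches, 4 lie after the start, all in genes that did not pass (Eif2ak2, Ifi205 and Ifitm3), and Eif2ak2 and Ifitm3 have none before it.

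IFIT proteins bind foreign RNA at its 5′ end and keep it from being translated. The 3 genes of the list lie close together on chromosome 19. Ifit2 and Ifit3 are adjacent, and 3 protein-coding genes lie between Ifit3 and Ifit1. Ifit3 gave 13.54, 13.08 and 13.10 in arrays labelled KLF2∆/∆, against 13.02, 12.93 and 12.97 in LysMCre/Cre arrays. It had the largest change of the 41 genes (0.27 ± 0.076 SE, 1.2-fold, adjusted p = 0.0111), and its groups did not overlap. Replicate 1 stood well above the rest of its group. Without that array the change was 0.12 (adjusted p = 0.0221), and the call was lost with a robust variance prior (adjusted p = 0.276) and with no intensity trend (0.0743). Ifit2 was tighter, at 13.56, 13.54 and 13.49 in arrays labelled KLF2∆/∆, against 13.30, 13.28 and 13.39 in LysMCre/Cre arrays (0.21 ± 0.034, adjusted p = 8.78e-05), and its groups did not overlap. Ifit1, given in full after its values were seen, was at 13.33, 13.15 and 13.21 in arrays labelled KLF2∆/∆, against 13.13, 13.16 and 13.25 in LysMCre/Cre arrays. These values overlapped, and the 95% interval of its change ran from -0.037 to 0.14 (adjusted p = 0.421). Ifit3b, outside the list and named after its values were seen, changed more than these 3 genes (0.499 ± 0.113 SE, adjusted p = 0.00209). In arrays labelled KLF2∆/∆ it went from 10.08 in replicate 1 to 9.35 in replicate 3. Eif2ak2 encodes PKR, the kinase that halts translation on sensing double-stranded RNA. Its values were 11.43, 11.35 and 11.20 in arrays labelled KLF2∆/∆, against 11.21, 11.23 and 11.21 in LysMCre/Cre arrays, a change of 0.11 that did not pass (adjusted p = 0.139), with 1 array labelled KLF2∆/∆ at the level of the others. Without that array, replicate 3, the change was 0.17 and passed (adjusted p = 0.00705).

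The oligoadenylate synthetases make the 2-5A messenger that activates RNase L, and 5 of the 6 genes of this family in the list rose. Among tested probe sets at least as bright as the dimmest antiviral gene, 32.7% were called higher. Outside the list, and named after their values were seen, Oas1b rose by 0.21 (adjusted p = 0.0115) and Oas1c changed by 0.22 without passing (adjusted p = 0.128). Oas3, the member most responsive to long double-stranded RNA, gave 12.56, 12.58 and 12.61 in arrays labelled KLF2∆/∆, against 12.36, 12.38 and 12.29 in LysMCre/Cre arrays (0.24 ± 0.037 SE, 1.18-fold, adjusted p = 5.78e-05). Each array labelled KLF2∆/∆ lay above each LysMCre/Cre array. The probe set standing for Oas1g also names Oas1a, so the signals of these near copies cannot be told apart there. It gave 12.32, 12.32 and 12.36 in arrays labelled KLF2∆/∆, against 12.13, 12.08 and 12.13 in LysMCre/Cre arrays (0.22, adjusted p = 0.000141). A probe set naming Oas1a alone changed by 0.18 (adjusted p = 0.00619), Oas2 by 0.17 (adjusted p = 0.00113) and Oasl1 by 0.165 (adjusted p = 0.000496). Oasl1 lacks synthetase activity and in mice holds back translation of Irf7. Its neighbour Oasl2, an active synthetase, was at 13.68, 13.63 and 13.50 in arrays labelled KLF2∆/∆, against 13.50, 13.54 and 13.57 in LysMCre/Cre arrays, and did not pass (0.067, 95% interval -0.013 to 0.15, adjusted p = 0.214). Without KLF2∆/∆ replicate 3, the lowest of its group for this gene, Oasl2 changed by 0.12 and passed (adjusted p = 0.0044).

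**Figure D3:**
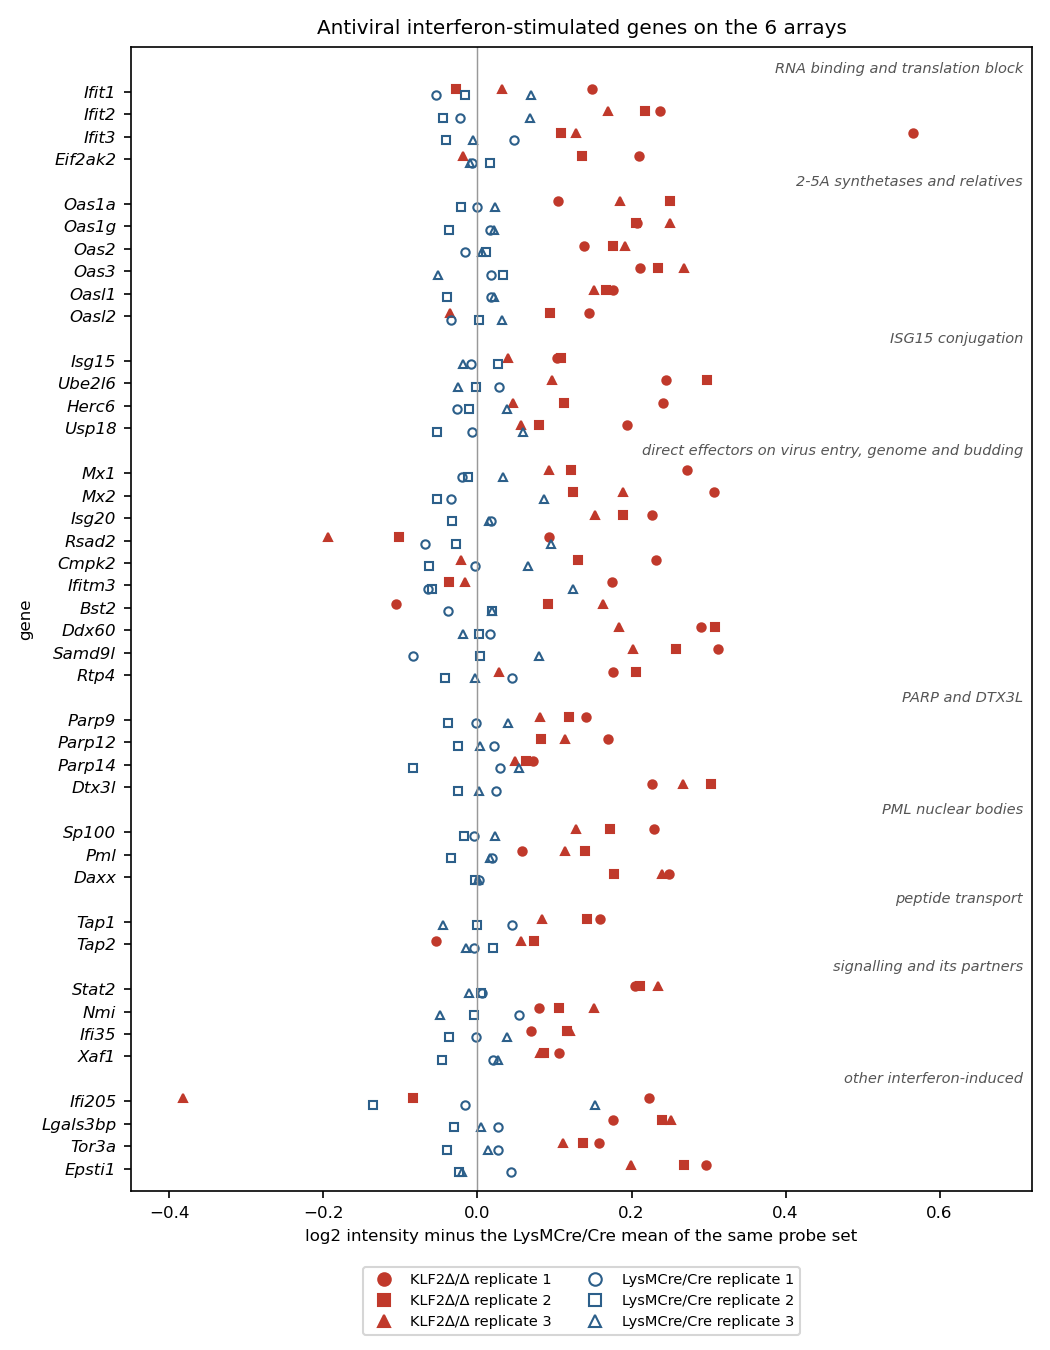
Log2 intensity of each of the 41 genes on each array, minus the LysMCre/Cre mean of the same probe set (horizontal), with genes grouped by role (vertical). Filled red points are the arrays labelled KLF2∆/∆, open blue points the LysMCre/Cre arrays, and the 2 groups do not overlap for 29 genes.

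ISG15 is a ubiquitin-like protein that is joined to target proteins by a chain of enzymes and removed by a protease. Ube2l6, the enzyme that carries ISG15, was at 12.32, 12.37 and 12.17 in arrays labelled KLF2∆/∆, against 12.10, 12.07 and 12.05 in LysMCre/Cre arrays. It rose by 0.21 ± 0.046 (SE, adjusted p = 0.00141), and the groups did not overlap. Herc6, the ISG15 ligase of mice, rose by 0.13 (adjusted p = 0.0230), and Usp18, the protease that removes ISG15 and also blocks IFNAR signalling, by 0.11 (adjusted p = 0.0323). Neither call held without some of the arrays. Without KLF2∆/∆ replicate 1 Herc6 changed by 0.080 (adjusted p = 0.136) and Usp18 by 0.068 (adjusted p = 0.184), and neither passed without LysMCre/Cre replicate 1 (0.0778 and 0.0723), LysMCre/Cre replicate 2 (0.0623 and 0.155) or KLF2∆/∆ replicate 2 (0.0633 and 0.0728). The Isg15 probe set, which also names Gm9706, gave 10.41, 10.42 and 10.35 in arrays labelled KLF2∆/∆, against 10.30, 10.33 and 10.29 in LysMCre/Cre arrays. The values did not overlap, but the change of 0.084 did not pass (95% interval -0.024 to 0.19, adjusted p = 0.254).

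Of the 10 measured genes acting on virus entry, genomes or budding, 6 rose and 4 did not pass. The share called higher was 13.6% over all tested probe sets and 32.7% over those at least as bright as the dimmest antiviral gene. Ddx60, a helicase linked to RNA sensing, gave 11.58, 11.60 and 11.47 in arrays labelled KLF2∆/∆, against 11.30, 11.29 and 11.27 in LysMCre/Cre arrays (0.26 ± 0.046 SE, adjusted p = 0.000190). Samd9l, a restriction factor of poxviruses, gave 12.07, 12.02 and 11.96 in arrays labelled KLF2∆/∆, against 11.68, 11.76 and 11.84 in LysMCre/Cre arrays (0.26 ± 0.047, adjusted p = 0.000260). Both genes were higher on each array labelled KLF2∆/∆ than on any LysMCre/Cre array. Isg20, a 3′ exonuclease acting on RNA, rose by 0.19 (adjusted p = 0.000262). The dynamin-like GTPase genes Mx2 and Mx1 rose by 0.21 (adjusted p = 0.00498) and 0.16 (adjusted p = 0.00894), and Mx1 changed by 0.11 with no call without KLF2∆/∆ replicate 1 (adjusted p = 0.0508). RefSeq lists both as transcribed pseudogenes in C57BL/6J, a strain whose Mx genes are known to make no working protein. Rtp4, a chaperone of receptors, rose by 0.14 (adjusted p = 0.0304), a call that was lost under 6 of 17 alternatives, among them the fits without LysMCre/Cre replicates 2 and 3 (adjusted p = 0.130 and 0.0779) and without KLF2∆/∆ replicates 1 and 2 (0.113 and 0.152).

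Rsad2 and Cmpk2 are neighbours on chromosome 12 and work in sequence, since CMPK2 makes the CTP that viperin, the product of Rsad2, turns into a chain terminator. Cmpk2 was at 13.60, 13.49 and 13.34 in arrays labelled KLF2∆/∆, against 13.36, 13.30 and 13.43 in LysMCre/Cre arrays, and did not pass (0.11, 95% interval 0.014 to 0.21, adjusted p = 0.0806). Rsad2, given in full after its values were seen, was at 14.01, 13.82 and 13.73 in arrays labelled KLF2∆/∆, against 13.85, 13.89 and 14.02 in LysMCre/Cre arrays. Its change of -0.068 did not pass either (95% interval -0.18 to 0.042, adjusted p = 0.387) and was 0.0010 after quantile normalization. Both genes were highest in replicate 1 and lowest in replicate 3 of the arrays labelled KLF2∆/∆. Without replicate 1 of that group Rsad2 changed by -0.15 and passed as lower (adjusted p = 0.0212), and without its replicate 3 Cmpk2 changed by 0.18 and passed as higher (adjusted p = 0.000728), as it did without LysMCre/Cre replicate 3 (0.147, adjusted p = 0.0324). Ifitm3, which blocks fusion of virus in endosomes, and Bst2, the tether of budding virions, changed by 0.040 and 0.050 with intervals of -0.066 to 0.15 and -0.074 to 0.17.

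Dtx3l, Parp9 and Parp14 lie side by side on chromosome 16, and the first pair of proteins forms a complex that joins ubiquitin and ADP-ribose chemistry. Dtx3l, the ubiquitin ligase, gave 12.37, 12.44 and 12.41 in arrays labelled KLF2∆/∆, against 12.16, 12.11 and 12.14 in LysMCre/Cre arrays. The groups were clearly apart, with a change of 0.27 ± 0.038 (SE, 1.2-fold, adjusted p = 1.90e-05). Its partner Parp9 was at 11.68, 11.66 and 11.62 in arrays labelled KLF2∆/∆, against 11.54, 11.50 and 11.58 in LysMCre/Cre arrays. It changed by 0.11 and missed the threshold narrowly (adjusted p = 0.0512). Over 17 alternatives this p lay between 0.0297 and 0.227, and 5 called the gene, among them the fit without KLF2∆/∆ replicate 3. Parp14 changed by 0.061 (95% interval -0.020 to 0.14) and the unlinked Parp12, an ADP-ribosyltransferase that blocks translation, rose by 0.12 (adjusted p = 0.00810). Whether the changes of these neighbours differ from each other was not tested.

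PML nuclear bodies are protein assemblies that silence viral genomes in the nucleus. Daxx, their histone chaperone, was at 11.95, 11.88 and 11.94 in arrays labelled KLF2∆/∆, against 11.70, 11.70 and 11.70 in LysMCre/Cre arrays, and rose by 0.22 ± 0.040 (SE, adjusted p = 0.000271). Its LysMCre/Cre values lay within 0.0052 of each other. Sp100 rose by 0.18 (adjusted p = 0.00136), and a second probe set that names Sp100 together with further genes changed by 0.44 (adjusted p = 2.66e-06), where their signals cannot be told apart. Pml, the scaffold of the bodies, was at 11.97, 12.05 and 12.03 in arrays labelled KLF2∆/∆, against 11.93, 11.88 and 11.93 in LysMCre/Cre arrays, with no overlap and no call (0.10, adjusted p = 0.0595). Pml passed without KLF2∆/∆ replicate 1 (0.13, adjusted p = 0.0298).

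Tap1 and Tap2 encode both subunits of the transporter that brings peptides to MHC class I, and lie close together on chromosome 17. Tap1 rose by 0.13 (adjusted p = 0.0124), a call lost without LysMCre/Cre replicate 3 (0.11, adjusted p = 0.0858), after quantile normalization (0.0597) and with no intensity trend (0.105). Tap2 was at 11.19, 11.32 and 11.30 in arrays labelled KLF2∆/∆, against 11.24, 11.27 and 11.23 in LysMCre/Cre arrays. These overlapped, and its change of 0.025 had an interval from -0.073 to 0.12, with the other sign after quantile normalization (-0.016).

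Stat2, the subunit of ISGF3 that carries its transactivation domain, had the smallest standard error of the 4 signalling genes. It gave 12.91, 12.92 and 12.94 in arrays labelled KLF2∆/∆, against 12.71, 12.71 and 12.70 in LysMCre/Cre arrays (0.22 ± 0.033 SE, 1.16-fold, adjusted p = 3.67e-05). Nmi and Ifi35 form a complex with each other. Nmi was at 10.18, 10.21 and 10.25 in arrays labelled KLF2∆/∆, against 10.15, 10.10 and 10.05 in LysMCre/Cre arrays, and did not pass (0.11, adjusted p = 0.134). Ifi35 changed by 0.10 (adjusted p = 0.0729) and Xaf1, an antagonist of the caspase inhibitor XIAP, by 0.091 (adjusted p = 0.120). All 3 had values without overlap that did not pass.

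Among the remaining interferon-induced genes, Lgals3bp had the smallest adjusted p of all 41. This secreted glycoprotein, which binds galectins, was at 13.82, 13.88 and 13.89 in arrays labelled KLF2∆/∆, against 13.67, 13.61 and 13.65 in LysMCre/Cre arrays (0.22 ± 0.030 SE, adjusted p = 9.62e-06). Epsti1, a gene first described in epithelial and stromal cell cultures, was at 11.32, 11.29 and 11.22 in arrays labelled KLF2∆/∆, against 11.06, 11.00 and 11.00 in LysMCre/Cre arrays (0.26 ± 0.047, adjusted p = 0.000302). Neither gene had overlapping values. Tor3a, an ATPase of the torsin family, rose by 0.135 (adjusted p = 0.00376). Ifi205, of the mouse HIN-200 family whose members share much sequence, was at 13.44, 13.13 and 12.84 in arrays labelled KLF2∆/∆, against 13.20, 13.08 and 13.37 in LysMCre/Cre arrays. It had the widest spread of the 41 genes and a change of -0.081 (95% interval -0.28 to 0.12, adjusted p = 0.592), which was 0.070 without KLF2∆/∆ replicate 3 and, without KLF2∆/∆ replicate 1, -0.23 with a call as lower (adjusted p = 0.0444).

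**Figure D4:**
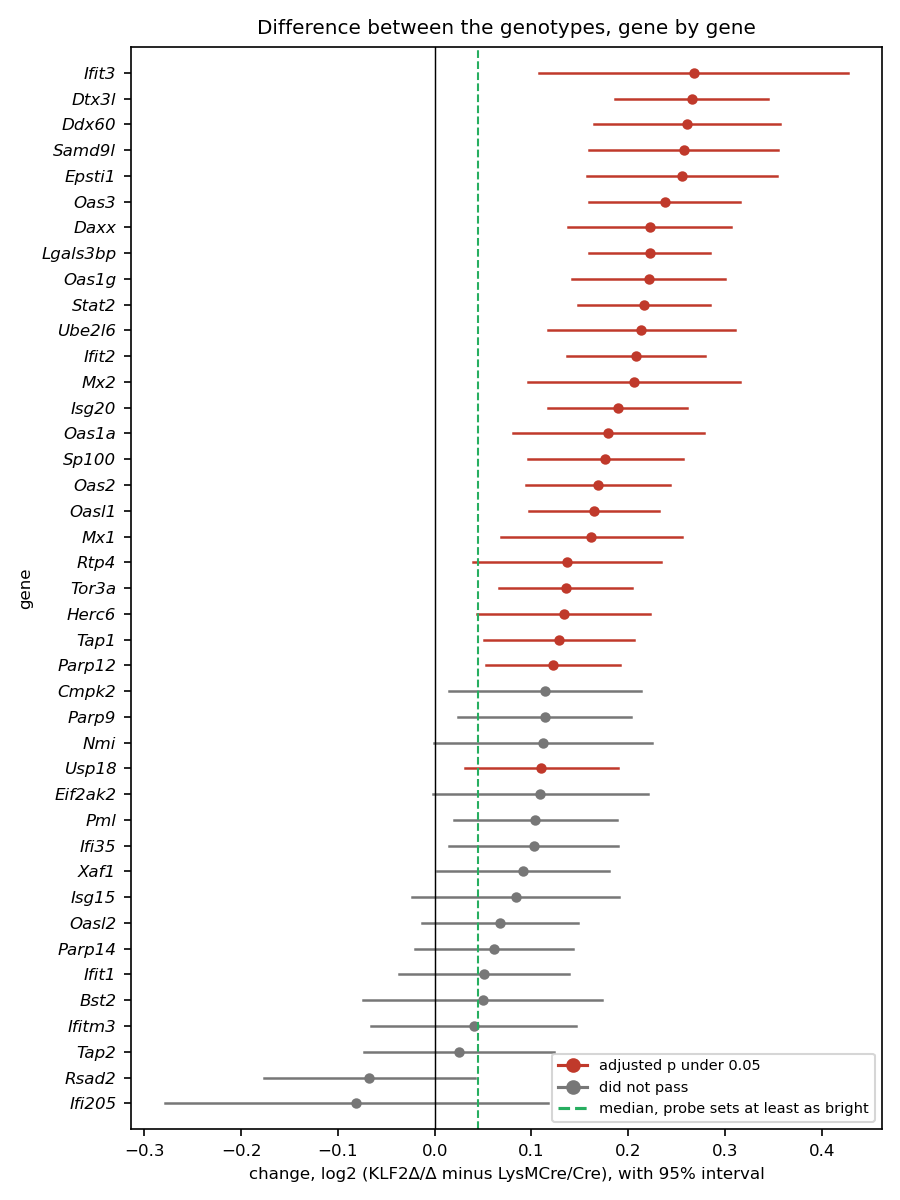
Change in log2 intensity, KLF2∆/∆ minus LysMCre/Cre, of each of the 41 genes (points) with its 95% interval from limma (lines), ordered by size. The 25 red genes passed an adjusted p of 0.05, the 16 grey ones did not, and the dashed line marks the median of 0.045 of probe sets at least as bright.

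The arrays of a group also differed among themselves. In the group labelled KLF2∆/∆, replicate 1 was the highest array for 25 of the 41 genes (61.0%), against 20.1% of all tested probe sets and 21.1% of those as bright. Replicate 3 was the lowest for 23 (56.1%), near the 50.3% of probe sets as bright, against 35.9% of all tested. The mean log2 intensity over the 41 genes was 12.44, 12.40 and 12.37 in arrays labelled KLF2∆/∆, against 12.26, 12.24 and 12.29 in LysMCre/Cre arrays. In LysMCre/Cre arrays, replicate 3 was the highest for 20 genes (48.8%), against 27.9% of all tested probe sets and 31.8% of those as bright. Replicate 2 was the lowest for 23 (56.1%), against 32.7% and 36.0% of these sets. Genes of 3 other interferon-induced lists (nucleic acid sensors, interferon-gamma type GTPases and further interferon-stimulated genes) had the same arrays at the ends. Of their 59 tested probe sets, 57.6% were highest in KLF2∆/∆ replicate 1 and 55.9% in LysMCre/Cre replicate 3. The range within a group had a median of 0.097 in arrays labelled KLF2∆/∆ and 0.066 in LysMCre/Cre arrays for the 41 genes, against 0.152 and 0.101 over all tested probe sets. Without KLF2∆/∆ replicate 1, 22 of the genes rose and 2 fell, and without KLF2∆/∆ replicate 3, 29 rose.

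**Figure D5:**
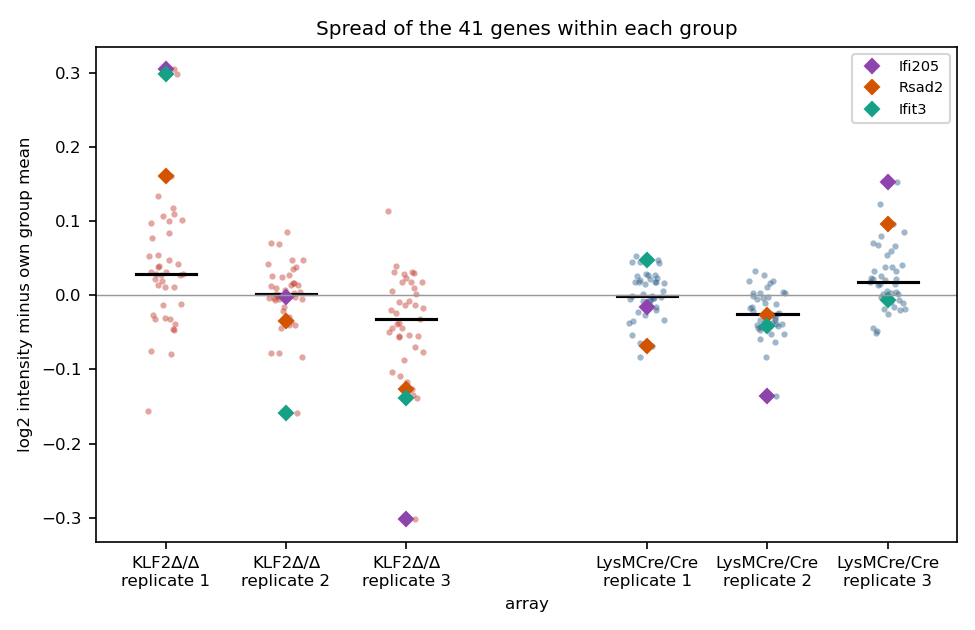
Log2 intensity of the 41 genes minus the mean of their own group (vertical) on each array (horizontal), with the median of each array as a bar and 3 genes picked out. KLF2∆/∆ replicate 1 lies highest and replicate 3 lowest in its group, and Ifi205 has the widest spread.

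Upstream of these genes lie the interferons and their receptors. Of 12 tested probe sets of ligands and receptors, 2 rose and none fell by limma, where 13.6% of all tested probe sets were called higher (median 0.098, against 0.0020 over all). At an unadjusted p under 0.05 a further 4 were higher, and none lower. The genes that rose were Il10rb (0.185, adjusted p = 0.00119), a chain shared by the receptors for interleukin 10 and interferon lambda, and Ifngr2 (0.14, adjusted p = 0.00421), a chain of the interferon gamma receptor. Named after its values were seen, Ifnb1, the type I interferon that LPS induces, had means of 6.90 in arrays labelled KLF2∆/∆ and 6.87 in LysMCre/Cre arrays, under the filter level in both, and was not tested. Of 14 signalling kinases, factors and brakes, 9 rose and 1 fell, with a median of 0.19. Among probe sets at least as bright as the dimmest antiviral gene, 32.7% were called higher and 17.6% lower. The interferon regulatory factor genes Irf2 and Irf7 rose by 0.27 and 0.18, the phosphatase gene Ptpn6 by 0.27 and the SUMO ligase gene Pias1 by 0.33. The 1 that fell, named after its values were seen, was Socs1, the inhibitor of JAK kinases (-0.275, adjusted p = 0.00351).

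Partners of the effectors and other interferon-induced genes were counted in the same fit. Over all tested probe sets 13.6% were called higher and 16.2% lower, with a median change of 0.0020. Among those at least as bright as the dimmest antiviral gene the shares were 32.7% and 17.6%, with a median of 0.045. Of 9 tested partners, 5 rose and none fell (median 0.11; at an unadjusted p under 0.05 the numbers were 6 and 1). They were the immunoproteasome genes Psmb9 (0.25) and Psmb10 (0.18), the RNA editing enzyme gene Adar (0.17), the ISG15-activating enzyme gene Uba7 (0.15) and Tapbp, which links the peptide transporter to MHC class I (0.11). Of 10 nucleic acid sensors, 6 rose and 1 fell (median 0.13). Those that rose were Aim2 (0.37), Dhx58 (0.24), Cgas (0.23), Tlr3 (0.23), Zbp1 (0.16) and Ddx58 (0.11). The sensor that fell was Sting1 (-0.14, adjusted p = 0.0414). Cgas, Ddx58 and Sting1 were named after their values were seen. Of 13 GTPases, 7 rose and none fell (median 0.15; unadjusted, 8 and 0), with Gbp4 at 0.43, Gbp7 at 0.32, Gbp9 at 0.25 and Gbp2, whose probe set names further genes, at 0.19. Of 36 further interferon-stimulated genes, 25 rose and 1 fell (median 0.18). Ifi27l2a rose by 0.81 (adjusted p = 1.09e-08), to 9.96 in arrays labelled KLF2∆/∆ against 9.15 in LysMCre/Cre arrays. Apobec3, a restriction factor of retroviruses, rose by 0.28 and Samhd1, which depletes nucleotides, by 0.18, while Ch25h, the cholesterol hydroxylase that makes an antiviral oxysterol, fell by 0.42 (adjusted p = 6.45e-07).

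Markers of other cell types that the culture could hold were read beside these values. In the plasmacytoid dendritic cell list 1 of 6 tested rose and 1 fell, with Siglech, the defining marker, at means of 7.58 in arrays labelled KLF2∆/∆ and 7.48 in LysMCre/Cre arrays, at the filter level. Summed linear intensities of that list were 4236 to 4407 in arrays labelled KLF2∆/∆ and 3909 to 4031 in LysMCre/Cre arrays. Tcf4, the gene of it that rose (0.29), was its brightest, with means of 11.23 and 10.94 in these groups, and so weighed most in these sums. Cox6a2 fell by 0.225, and the other 4, Siglech among them, did not pass. Of 7 T and NK cell markers 6 lay under the filter, and none of 3 tested B cell markers passed. Neutrophil markers rose in 3 of 5 tested cases, Mmp8 by 0.74, Csf3r by 0.38 and S100a9 by 0.26, and none fell. A further 3 of that list, S100a8 among them, lay under the filter. Its sums were 6015 to 6279 in arrays labelled KLF2∆/∆ and 4775 to 5019 in LysMCre/Cre arrays. Csf3r was the brightest of the list, with means of 12.3 and 11.92 in these groups, and so weighed most in its sums. Retnlg (0.12) and Camp (0.013) were tested and did not pass. Macrophage markers summed to 42725 to 43993 in arrays labelled KLF2∆/∆ and 39658 to 40470 in LysMCre/Cre arrays. Those of fibroblasts and mesothelium summed to 11146 to 12328 in arrays labelled KLF2∆/∆ and 20328 to 20525 in LysMCre/Cre arrays. Markers of resident macrophages summed to 3301 to 3615 in arrays labelled KLF2∆/∆ and 8559 to 8943 in LysMCre/Cre arrays, and conventional dendritic cell markers, with 1 of 3 tested lower, to 1705 to 1778 in arrays labelled KLF2∆/∆ and 1916 to 2006 in LysMCre/Cre arrays. The part of these cells in the antiviral genes was not tested.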

How the data were processed

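RNA of 6 samples, 3 per genotype, was hybridised to 1-colour Affymetrix gene arrays. The deposited table holds log2 intensity per probe set, made by the authors with Affymetrix Expression Console and RMA, per the submitters' processing notes. The linear intensity table the authors also deposited repeats them (largest difference 5.1e-05 in log2). The genome build behind the probe sets is not stated in the labels, and only the RefSeq sequences carry coordinates. Every value column belonged to a sample.

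Of 28944 non-control probe sets, 21789 name 1 gene, 1621 several and 5534 none. A gene was represented by the probe set with the highest mean among those naming it alone, or otherwise among those naming several. The 20568 probe sets were filtered at the 40th percentile of mean log2 intensity (7.49), which left 13027. Genotype differences come from limma 3.58.1, run in R 4.3.3 (lmFit, eBayes with intensity trend, two-sided, Benjamini-Hochberg, threshold 0.05), after the procedure was tested on simulated data. Array medians were 7.85 to 7.90, and 3 arrays per group limit the precision. The members and lists were chosen with earlier results of these data known. Values per array are given for the 12 largest called changes and, per role, for the uncalled gene with the largest change in size. Alternatives covered scaling, variance model, array weights, filter, choice of probe set, source table, a replicate block and leaving out each array.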

Additional observations from a re-analysis of the deposited data

How the results depend on the processing

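The number of antiviral genes called higher was 25, and 17 to 27 under the alternatives that kept all arrays, lowest with no intensity trend and highest with array weights and with the filter at the 60th percentile. Leaving out 1 array gave 22 to 29. Of the 25, 17 were called under each alternative that tested them, which was all 17 alternatives, or 16 for Oas1g. The fit on probe sets naming 1 gene left out that of Oas1g. The other 8 (Ifit3, Herc6, Usp18, Mx1, Rtp4, Parp12, Tap1 and Tor3a) lost the call with no intensity trend, the adjusted p ranging between 0.0699 and 0.206. Of the uncalled genes, 6 passed as higher under at least 1 alternative. No gene was called lower under the alternatives that kept all arrays, and 0 to 2 without 1 array, the 2 being Rsad2 and Ifi205 without KLF2∆/∆ replicate 1. The median change was 0.135 to 0.142 with all arrays and 0.124 to 0.173 without 1, highest without KLF2∆/∆ replicate 3. Over all tested probe sets 1343 to 2184 were called higher and 1674 to 2341 lower. Signs turned only for changes that did not pass: Rsad2 (0.0010) and Tap2 (-0.016) after quantile normalization, and, without 1 array, Lyz2 (-0.033 to 0.044), Ifitm3 (-0.027 to 0.10), Bst2 (-0.0070 to 0.13) and Ifi205 (-0.23 to 0.070). The cause of these shifts was not tested. Same-numbered arrays did not deviate together (correlations of -0.095, 0.113 and -0.046). No label says that equal numbers mark a pair, though 3 arrays per group cannot exclude one. The replicate block gave 25 antiviral genes higher and 0 lower, with 1799 probe sets higher and 2131 lower in all. Groups of 3 arrays are too small to single out a deviating array by a test.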
